A study of Mus musculus with 278 samples.

Results

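Matricellular and matrix glycoproteins are secreted proteins that lie in or on the extracellular matrix and regulate how cells hold to it and signal through it. The group described here was listed by gene name, with earlier results of these data known. It comprises fibronectin (Fn1), Sparc, follistatin-like 1 (Fstl1), thrombospondins 1 and 2 (Thbs1, Thbs2), periostin (Postn), tenascin-C (Tnc), fibrillin-1 (Fbn1), lumican (Lum) and decorin (Dcn). Of these 10 genes, 9 have a row in the expression matrix of 14145 genes, and Lum was not analysed here. Transcript levels were measured in individual cultured keratinocytes, the epithelial cells that make up most of the epidermis, grown from the dorsal skin of adult mice. WT keratinocytes were mixed 9:1 with K14ΔNβ-cateninER keratinocytes, in which the keratin 14 promoter drives a stabilised beta-catenin that acts once 4-hydroxy-tamoxifen (4OHT) is present. Untreated co-cultures received DMSO and treated co-cultures 200 nM 4OHT for 24 h, and both contained transgenic cells, which were not told apart here. The library names fall into 2 series, AG and GHA501A, each with untreated and treated cells.

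The analysis used 270 cells in 4 library sets, namely 66 untreated and 64 treated AG cells and 71 untreated and 69 treated GHA501A cells. A further 8 AG cells carry names and treatment labels that disagree, and these were left out. Values are TPM, transcript levels corrected for gene length that sum to 1000000 in each cell, so the read depth behind a low value is unknown. A gene was counted as detected in a cell at TPM over 1, and between 2538 and 7592 genes were detected per cell. All cells are labelled keratinocytes. In AG, 9 of 9 measured keratinocyte markers were detected in at least 50% of the cells of each set, with a median summed level of 9731 TPM untreated and 9959 TPM treated. In GHA501A this held for 1 of 9 markers untreated and 5 of 9 treated, with median sums of 10.9 and 45.9 TPM. Conversely, 7 of 7 measured fibroblast markers reached 50% of cells in both GHA501A sets against 2 of 7 in both AG sets. The median fibroblast sums were 2589 and 2355 TPM in GHA501A (range 17.1 to 22721 over both sets) and 75.2 and 133.6 TPM in AG (range 0 to 3000). The defining fibroblast gene Col1a1 was detected in 100% of GHA501A cells and in 36.4% and 31.3% of AG cells. Most GHA501A cells thus had keratinocyte transcripts at low levels or not at all, against their label. Detection in at least 50% of cells was not confined to these 2 lists. It held for the 1 measured immune marker (Lyz2) in every set. Of 3 melanocyte markers it held for 2 in each AG set and 1 in each GHA501A set. The 1 endothelial and 1 mural marker measured reached it in no set. Library series, preparation and cell composition cannot be told apart in this design, and every difference between the series below is a difference between these library sets.

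Fibronectin forms fibrils to which cells attach through integrins. Sparc binds collagen and Fstl1 is a secreted relative of Sparc. The thrombospondins are multimeric glycoproteins that bind cell-surface receptors and growth factors, and Thbs1 can activate latent TGF-beta. Tenascin-C and periostin are deposited at wound edges and in remodelling tissue. Fibrillin-1 builds the microfibrils on which elastic fibres form, and decorin is a small leucine-rich proteoglycan that coats collagen fibrils. In skin most of these proteins come from dermal fibroblasts, although keratinocytes in culture and in wounds also make fibronectin, thrombospondin-1 and tenascin-C.

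The promoters of genes that differed in opposite directions between the series are shown first, since the levels of Thbs2 and Postn (higher in GHA501A) and Tnc (higher in AG) are described below. RefSeq start sites were available for 6 of the 9 genes. Of their 8 upstream windows, the 4 that hold no annotated exon base are printed, each the 250 bases before a start site (RefSeq, GRCm38.p6, written 5′ to 3′ on the strand of the gene). Capitals mark matches on either strand to the TATAA box, the CCAAT box, the AP-1 motif, searched as TGANTCA, and the GC box, searched as GGGCGG.
Thbs2, chr17:14694263-14694512, minus strand: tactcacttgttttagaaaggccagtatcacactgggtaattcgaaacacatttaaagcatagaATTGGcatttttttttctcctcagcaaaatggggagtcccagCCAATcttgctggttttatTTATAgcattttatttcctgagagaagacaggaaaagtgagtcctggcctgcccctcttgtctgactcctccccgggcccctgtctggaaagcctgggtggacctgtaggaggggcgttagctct
Postn, upstream start site, chr3:54359017-54359266, plus strand: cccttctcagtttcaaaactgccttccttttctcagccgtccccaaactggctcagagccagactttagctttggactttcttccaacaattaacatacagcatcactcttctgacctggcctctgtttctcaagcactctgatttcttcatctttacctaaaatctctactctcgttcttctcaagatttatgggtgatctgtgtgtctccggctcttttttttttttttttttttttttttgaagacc
Postn, downstream start site, chr3:54360857-54361106, plus strand: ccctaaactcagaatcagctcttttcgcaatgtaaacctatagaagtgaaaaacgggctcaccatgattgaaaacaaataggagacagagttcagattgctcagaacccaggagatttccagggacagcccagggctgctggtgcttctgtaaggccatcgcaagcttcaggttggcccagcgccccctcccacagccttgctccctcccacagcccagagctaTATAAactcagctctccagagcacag
Tnc, upstream start site, chr4:64047016-64047265, minus strand: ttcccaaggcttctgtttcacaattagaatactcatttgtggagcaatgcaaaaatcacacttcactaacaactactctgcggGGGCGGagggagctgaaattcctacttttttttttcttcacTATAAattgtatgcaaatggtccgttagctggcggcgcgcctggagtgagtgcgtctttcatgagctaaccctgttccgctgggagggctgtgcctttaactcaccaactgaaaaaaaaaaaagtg
In the downstream Postn window the TATAA letters begin 26 bases before the start, and in the printed Thbs2 and Tnc windows they lie farther upstream. The window of the downstream Tnc start site was not printed, since it holds 79 exon bases of Tnc. It has TATAA letters that begin 27 bases before that start. The upstream Postn window held none of the motifs searched. The TATAA letters were thus present in 3 of the 4 printed windows. They were present in 22.8% of the 32851 promoters of the table searched over the same length, which were not filtered for exon bases. CCAAT was present in the Thbs2 window and in 33.8% of all promoters, and GGGCGG in the Tnc window and in 32.7%. Of the windows not printed, that of Tnc held TATAA and GGGCGG. Those of Fstl1 and Fbn1 held GGGCGG only, and that of Sparc held none of the motifs. TGANTCA was present in none of the windows of the 6 genes and in 6.75% of all promoters. These matches describe sequence only.

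The rule contrasts genes shared by both series with genes restricted to one, and this was first read from detection. A gene was called shared if it was detected in at least 50% of the cells of each set, and restricted if detected in at least 20% of cells in both sets of a series and in under 5% in both sets of the other. Fn1, Sparc and Fstl1 were shared, as were 34.9% of the 12355 genes tested. Dcn was restricted to GHA501A, a class that held 5.79% of all genes, and no member was restricted to AG, where the class held 2.01%. The other 5 members (Thbs1, Thbs2, Postn, Tnc and Fbn1) were graded, being found in both series at different frequencies. With 10 TPM as the detection limit, or with limits of 25% and 10% for restriction, Dcn was also graded. The shared class held the same 3 genes in each of these settings.

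**Figure D1:**
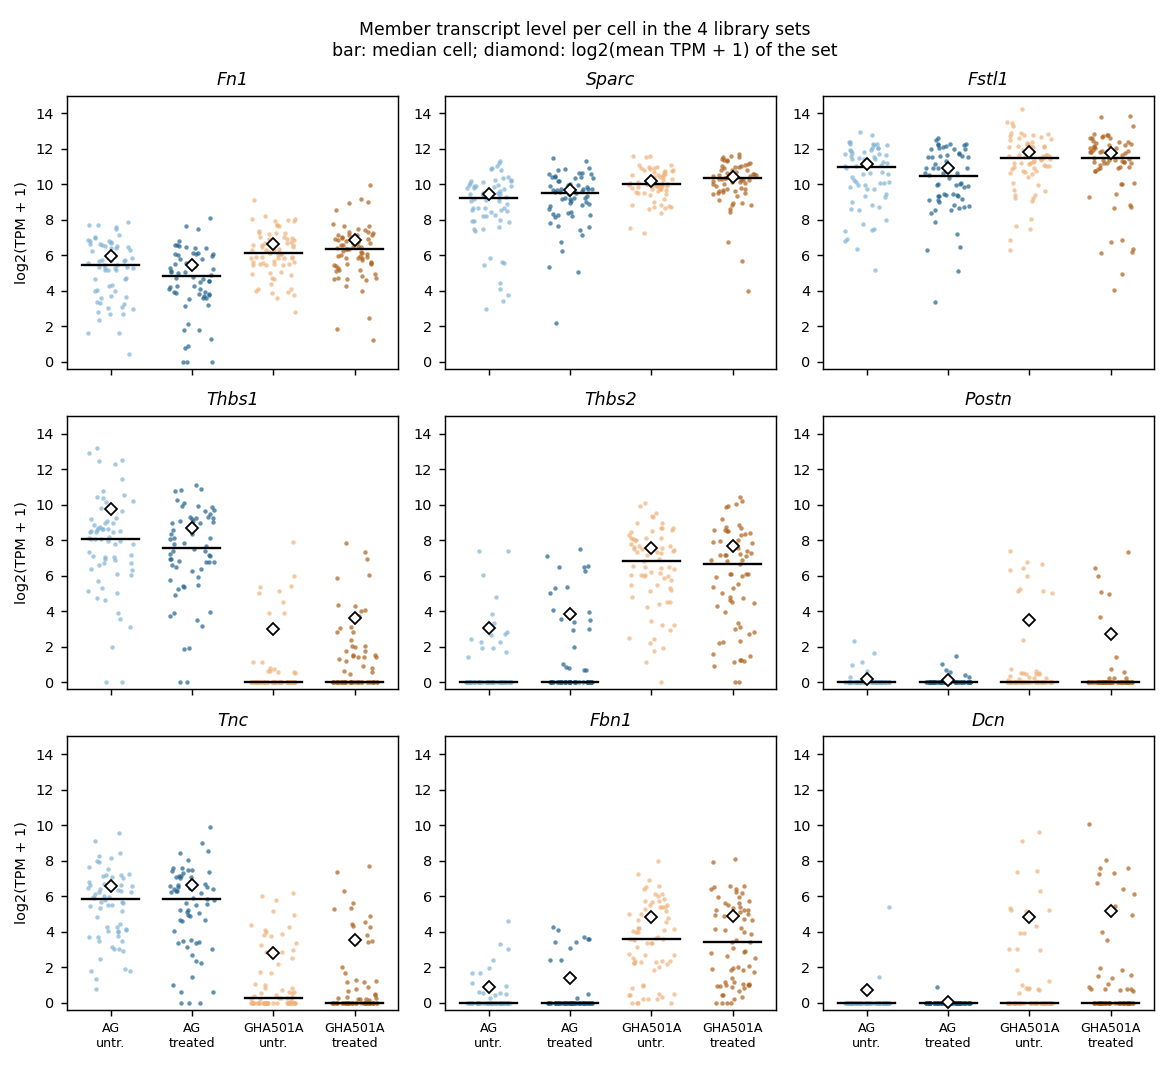
Level of each of the 9 measured genes in single cells, as log2(TPM + 1) on the vertical axis, for the 4 library sets on the horizontal axis. Each point is 1 cell, the bar is the median cell and the diamond is log2(mean TPM + 1) of the set. Fn1, Sparc and Fstl1 overlap widely between the sets, with the medians and means of both GHA501A sets above those of both AG sets. Thbs1 and Tnc lie higher in AG, and Thbs2 and Fbn1 lie higher in GHA501A.

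Fstl1 was the most abundant member in every set. Its mean TPM was 2260 in untreated AG, 1968 in treated AG, 3637 in untreated GHA501A and 3500 in treated GHA501A, and it was detected in 100% of cells of every set. These means ranked it between 21 and 73 among the 12355 genes, and Fstl1 alone made up 56.5% to 70.3% of the summed TPM of the 9 members. The cells spread widely around these means, from 9.41 to 8027 TPM in AG and from 15.5 to 19648 TPM in GHA501A, so that the series overlap over most of the range. Sparc was next, with means of 700.3, 820.5, 1174 and 1384 TPM in the same order of sets, and was also detected in every cell. Fn1 was lower, at 60.3, 42.8, 97.1 and 117.6 TPM, with detection in 98.5%, 92.2%, 100% and 100% of cells. For all 3 genes both GHA501A sets lay above both AG sets. The coefficient of variation of TPM between the cells of a set was 0.53 to 0.84 for Sparc, 0.81 to 0.89 for Fstl1 and 0.92 to 1.29 for Fn1.

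The differences of the shared genes between the series did not pass the test. The test was limma, fitted to the 4 set levels as log2(mean TPM + 1) with treatment as a covariate. A gene was called at an adjusted p under 0.05 and an absolute log2 difference over 0.5. AG minus GHA501A was -0.76 for Fstl1 (SE 0.33, limma adjusted p = 0.158), -0.75 for Sparc (SE 0.33, limma adjusted p = 0.160) and -1.06 for Fn1 (SE 0.37, limma adjusted p = 0.103), each from 2 sets per series. Where the mean of log2(TPM + 1) over cells was taken instead, which weights low cells more, all 3 were called, with differences of -0.82, -1.13 and -1.26 and limma adjusted p-values of 0.0265, 0.0131 and 0.0165. Over all alternatives the adjusted p ranged from 0.0265 to 0.382 for Fstl1, from 0.0131 to 0.395 for Sparc and from 0.0165 to 0.2001 for Fn1.

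The remaining 6 of the 9 measured members were called between the series, against 29% of all genes tested. Of these, Thbs1 and Tnc were higher in AG (2 of 9, against 10.8% of all genes) and Thbs2, Postn, Fbn1 and Dcn were higher in GHA501A (4 of 9, against 18.2%). Genes were tested if over 1 TPM in more than 5 cells of the 4 sets together. Postn, detected in 5 AG cells, and Dcn, detected in 2, met this only through their GHA501A cells. Of all 3580 calls, 37.2% were higher in AG. That share was 51.5% with each set centred on its median over all genes, which shifted the median difference of all genes by 0.27, and 52.2% with the mean of log2(TPM + 1). The same 6 members were called under the centring, with the same signs. With untreated AG left out and no covariate, Thbs1, Tnc and Postn lost the call (limma adjusted p = 0.0510, 0.0823 and 0.0992), and with treated AG left out Tnc and Postn did (0.0799 and 0.0962). The median absolute log2 difference was 3.43 over the members and 0.82 over all genes. Since the members were chosen with earlier results of these data known, their excess over all genes is a description and no independent evidence.

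**Figure D2:**
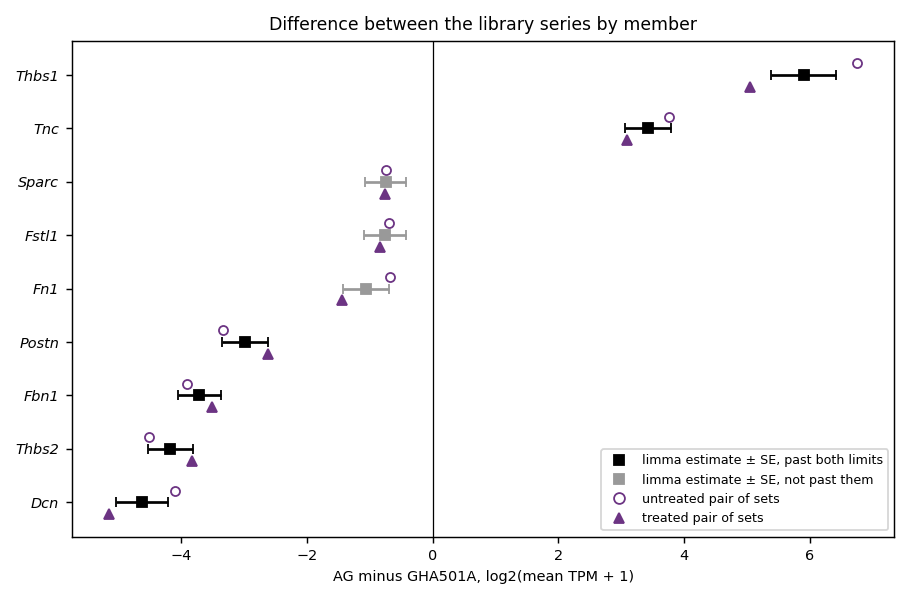
AG minus GHA501A on the log2(mean TPM + 1) scale for each member. Squares with bars give the limma estimate and its SE (black where called, grey where not), open circles the untreated pair of sets and triangles the treated pair. The estimates run from -4.62 for Dcn to 5.90 for Thbs1, and for every member the untreated and treated pairs lie on the same side of 0.

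The thrombospondins showed opposite patterns. Thbs1 averaged 875 and 409 TPM in untreated and treated AG and 7.14 and 11.3 TPM in the GHA501A sets, and was detected in 96.97%, 96.9%, 15.5% and 40.6% of cells. AG exceeded GHA501A by 5.90 on the log2 scale (SE 0.51, limma adjusted p = 0.0027), a 59.8-fold difference of mean TPM + 1. The AG mean was carried by a minority of cells, since the top 10% of cells held 65.9% of the summed Thbs1 TPM without 4OHT and 41.8% with it, and the median cells were at 271.8 and 190.98 TPM. Thbs2 averaged 7.36 and 13.4 TPM in AG against 190 and 203 TPM in GHA501A, with detection in 24.2%, 28.1%, 98.6% and 95.7% of cells. Its difference was -4.17 (SE 0.36, limma adjusted p = 0.0027). Neither gene had an AG set within the range of the GHA501A set means.

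Within single cells the thrombospondin with the higher TPM changed with the series. Thbs1 exceeded Thbs2 in 96.2% of the 130 AG cells (Wilson 95% interval 91.3% to 98.3%, which covers the counting of cells only). Thbs2 exceeded Thbs1 in 91.4% of the 140 GHA501A cells.

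**Figure D3:**
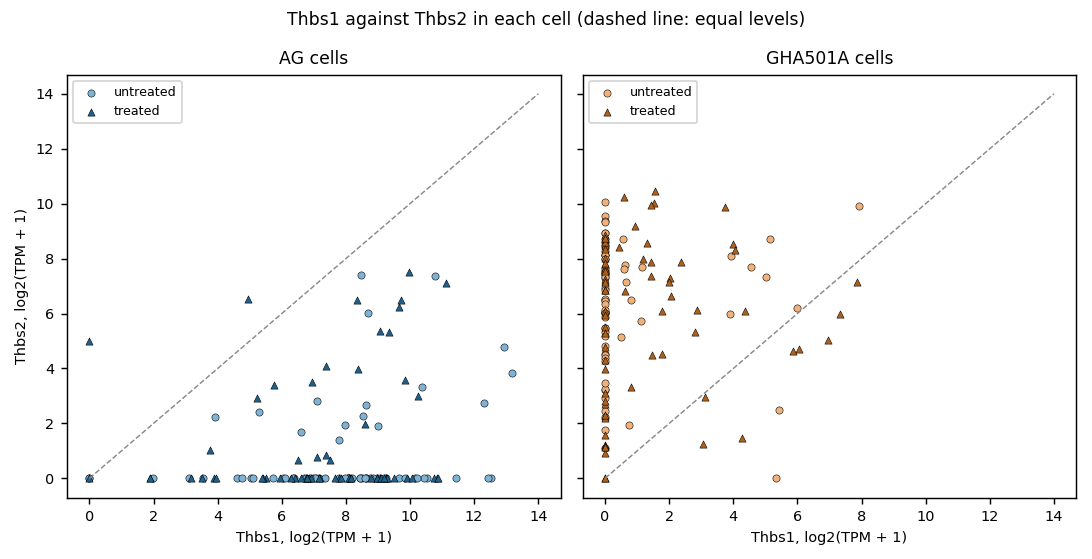
Thbs2 (vertical axis) against Thbs1 (horizontal axis) in single cells, both as log2(TPM + 1), for AG (left) and GHA501A (right), with circles for untreated and triangles for treated cells. In AG 96.2% of 130 cells lie below the dashed line of equal levels, and in GHA501A 91.4% of 140 lie above it.

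Tnc followed Thbs1. Its mean TPM was 92.4 and 97.4 in untreated and treated AG and 5.87 and 10.6 in the GHA501A sets, with detection in 98.5%, 92.2%, 30.99% and 30.4% of cells. The difference was 3.43 (SE 0.36, limma adjusted p = 0.0042). Tnc was among the genes that the study picked as state markers from these libraries, so its variation among these cells is not independent evidence. Postn, the other glycoprotein of remodelling tissue, was rare everywhere, with means of 0.14, 0.069, 10.5 and 5.59 TPM and detection in 4.55%, 3.13%, 15.5% and 10.1% of cells. No AG cell exceeded 3.97 TPM of Postn, whereas 16 of 140 GHA501A cells exceeded 10 TPM. The Postn difference was -2.98 (SE 0.37, limma adjusted p = 0.0062). It was -0.66 and not called with the mean of log2(TPM + 1) (limma adjusted p = 0.0626, range over alternatives 0.0019 to 0.0992) and -5.27 with a pseudocount of 0.1.

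Fibrillin-1 and decorin were higher in GHA501A but differed in how many cells carried them. Fbn1 averaged 0.84 and 1.63 TPM in AG and 26.8 and 28.8 TPM in GHA501A, with detection in 13.6%, 15.6%, 78.9% and 76.8% of cells and a difference of -3.71 (SE 0.34, limma adjusted p = 0.0030). Dcn averaged 0.65 and 0.013 TPM in AG and 27.3 and 34.8 TPM in GHA501A. It was detected in 2 of 66 untreated AG cells and in 0 of 64 treated AG cells, which allows a share of up to 4.69%, and in 23.9% and 27.5% of GHA501A cells. Thus Fbn1 was present in most GHA501A cells and Dcn in a minority of them. The top 10% of GHA501A cells held 92.3% of the summed Dcn TPM and 46.99% of the Fbn1 TPM, and single cells reached 1083 TPM of Dcn. The Dcn difference was -4.62 (SE 0.41, limma adjusted p = 0.0028). It was -1.30 with the mean of log2(TPM + 1) and -6.73 with a pseudocount of 0.1, so its size depends on the scale.

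Reads of some members cannot be separated from those of a gene on the other strand, as strand-specific counting was not stated. In GENCODE M21, 2442 of the 12128 exon bases of Fbn1 (chromosome 2, 125300594 to 125507993) are shared with Gm9913. The overlaps were 292 of 11685 bases for Fn1 (chromosome 1, 71585520 to 71653200) and 208 of 6073 for Thbs1 (chromosome 2, 118111876 to 118127133), and Tnc (chromosome 4, 63959785 to 64047015) has a shorter one. Sparc, Fstl1, Thbs2, Postn and Dcn share no exon base with another gene.

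The study compared single WT cells of treated and untreated co-cultures, with transgenic cells removed, and reported a changed distribution of cell states. The fit here compared the means of the 4 library sets, with transgenic cells not told apart, and cell states were not tested. No member was called with treatment in this fit, nor was any other gene (0% of 12355). The SE of the member differences ran from 0.33 (Sparc) to 0.51 (Thbs1). Power was not measured, so the lack of calls does not show that levels were unchanged. At an unadjusted p under 0.05 there were 459 genes, of which 0 were members, and without the series as a block 53. The member differences, treated minus untreated with limma and the series as a block, ran from -0.44 (Postn) to 0.44 (Thbs2), and every limma adjusted p was 0.998. The median absolute difference was 0.25 over the members and 0.26 over all genes. Sparc was 0.23 higher in treated AG and 0.24 higher in treated GHA501A (SE of the joint estimate 0.33). Fstl1 was lower in both, with differences of -0.20 and -0.06. For Thbs1 the difference was -1.10 in AG and 0.60 in GHA501A. The highest Thbs1 level of a cell was 9199 TPM in untreated and 2227 TPM in treated AG, so the AG sets differed in their top cells more than in the medians given above.

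In GHA501A, with 1 untreated and 1 treated set, weak Thbs1 detection was more frequent in the treated set. Thbs1 was over 1 TPM in 15.5% of untreated cells (Wilson 95% interval 8.88% to 25.7%) and in 40.6% of treated cells (29.8% to 52.4%). These intervals cover the counting of cells only, and the difference was not tested. How many of all genes rose in detection likewise was not counted. At a limit of 10 TPM the shares were 12.7% and 14.5%. Krt14, a basal keratinocyte keratin and no member, moved from 66.2% to 91.3% of these cells, and its partner Krt5 from 39.4% to 75.4%. Among cells with Krt14 under 100 TPM and Col1a1 at or over 100 TPM, Thbs1 was detected in 6.67% of 60 untreated and 38.8% of 49 treated cells, and Krt5 in 30% and 67.3%. Detection of Krt14 and Krt5 was thus also higher in the treated set. Across the 69 treated GHA501A cells, Spearman's rho of Thbs1 was 0.05 with Krt14. It was -0.03 with the keratinocyte marker score, the mean log2(TPM + 1) of the keratinocyte markers. The part of keratinocyte genes in the Thbs1 frequency was not tested.

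Levels were then described by the range of Krt14 and Col1a1, which are no members, because the GHA501A series holds cells with either gene. At a limit of 100 TPM, 18 GHA501A cells (8 untreated and 10 treated) had Krt14 at or over and Col1a1 under the limit. The converse held for 60 untreated and 49 treated GHA501A cells, both genes were over the limit in 12 cells and neither in 1. In AG the numbers in the same order were 123, 0, 6 and 1. Between 50 and 200 TPM, close to the limit, lay the Krt14 level of 6 GHA501A cells and 1 AG cell, and the Col1a1 level of 9 GHA501A and 10 AG cells. The cells of each range come from 2 sets per series, so these are descriptions with no test.

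Pooled over both sets, Fstl1 was the member that differed most between these ranges in GHA501A. The median was 156.1 TPM in the 18 cells with Krt14 and 3219 TPM in the cells with Col1a1, while AG cells with Krt14 were at 1572 TPM. The difference in mean log2(TPM + 1) was -4.03 in GHA501A, and it was -3.09 without 4OHT, where Fbn1 differed by more (-3.38), and -4.82 with it. Fstl1 was thus shared by both series by detection, yet the GHA501A cells with Krt14 had lower levels than the AG cells with Krt14. Sparc had medians of 474 TPM in the 18 cells, 1244 TPM in the cells with Col1a1 and 607 TPM in AG cells with Krt14. Fn1 had medians of 20.8, 81.1 and 35.5 TPM. For Sparc and Fn1, therefore, the 18 cells were nearer to the AG cells than to the remaining GHA501A cells.

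Tnc and Thbs1 were also not at AG levels in GHA501A cells with Krt14. Tnc was detected in 72.2% of the 18 cells with a median of 9.55 TPM, in 23.9% of the GHA501A cells with Col1a1 with a median of 0, and in 95.1% of the AG cells with Krt14 with a median of 57.9 TPM. Thbs1 was detected in 44.4%, 21.1% and 96.7% of the same cells with medians of 0.27, 0 and 250 TPM. Thbs1 reached at most 61.8 TPM in the 18 cells. The Thbs1 difference between the GHA501A ranges was 2.84 without 4OHT and -0.55 with it, so it had no common direction, whereas that of Tnc was 2.98 and 1.90. The series difference remained called with every GHA501A cell with Krt14 at or over 100 TPM left out, at 6.13 for Thbs1 (limma adjusted p = 0.0037, range over alternatives 4.4e-05 to 0.0510) and 4.46 for Tnc (limma adjusted p = 0.0022, range over alternatives 0.00022 to 0.0823).

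The GHA501A-high members were lower in the 18 cells with Krt14. How many of all genes were lower in these cells was not counted. Thbs2 had a median of 7.99 TPM there and 156.2 TPM in the cells with Col1a1, although it was detected in 94.4% and 97.2% of them. Col1a1 itself was detected in all 18 cells, at 5.18 to 77.1 TPM, and in 30.9% of AG cells of the same range, and the part of this low-level signal in Thbs2 detection was not tested. Fbn1 had medians of 0.35 and 16 TPM and was detected in 27.8% and 87.2% of cells. Dcn was detected in 11.1% and 28.4%. Postn was detected in 0 of the 18 cells, which allows a share of up to 16.7%, and in 15.6% of the cells with Col1a1. In the 12 GHA501A cells with both genes over the limit, the medians were 2198 TPM for Fstl1, 64.2 TPM for Thbs2 and 2.42 TPM for Thbs1.

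The 6 AG cells with both genes over the limit differed between the sets in Thbs2. It was at 0 and 1.65 TPM in the 2 untreated cells and at 88.2 to 181.7 TPM in the 4 treated cells, against a median of 0 in the 123 AG cells with Krt14 alone. Thbs2 was detected in 5 of the 6 cells and also in 29 of the 123, so most AG cells with Thbs2 had Col1a1 under the limit. At a limit of 30 TPM, 15 AG cells had both genes, with a Thbs2 median of 2.25 TPM. The Fn1 median of the 6 cells was 183.3 TPM against 35.5 TPM in the 123, and their Thbs1 median was 615 TPM against 250 TPM. Dcn was detected in 0 of the 6 cells, which allows a share of up to 50%.

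**Figure D4:**
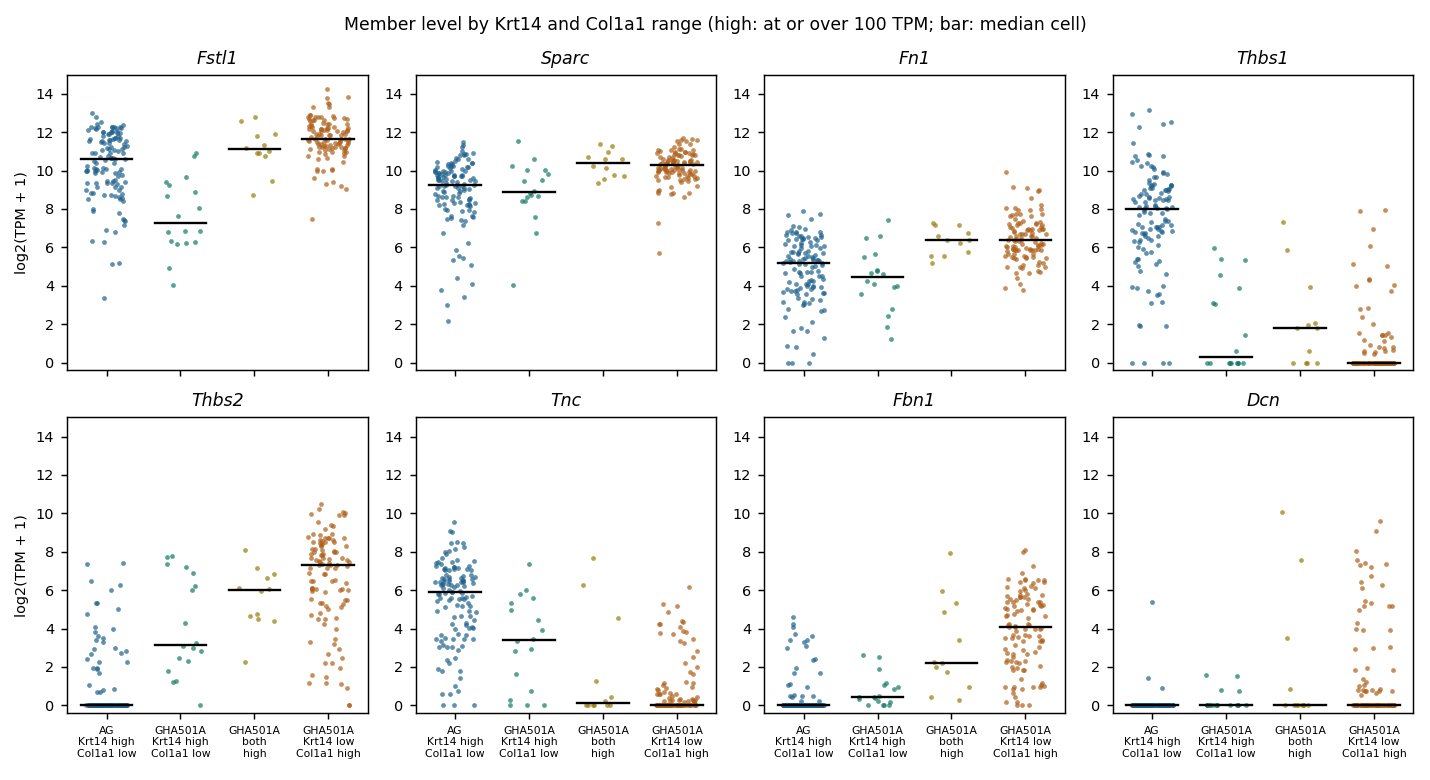
Level of 8 members as log2(TPM + 1) in single cells, grouped on the horizontal axis by series and by whether Krt14 and Col1a1 were at or over 100 TPM (from left, AG cells with Krt14 alone, then GHA501A cells with Krt14 alone, with both and with Col1a1 alone). Points are cells and bars are medians. GHA501A cells with Krt14 have less Fstl1 than each of the other groups, and less Thbs1 and Tnc than AG cells with Krt14.

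Across the cells of a set, Sparc and Fstl1 varied together in every set, with Spearman's rho of 0.45 and 0.42 in untreated and treated AG (66 and 64 cells) and 0.44 and 0.56 in GHA501A (71 and 69 cells). Fstl1 and Tnc rose together in AG, at 0.50 and 0.63, against -0.15 and -0.19 in GHA501A. Likewise Fstl1 was related to Krt14 at 0.21 and 0.02 in AG and at -0.41 and -0.57 in GHA501A, while its rho with Col1a1 was 0.13 and 0.41 in AG and 0.51 and 0.67 in GHA501A. Tnc was related to the keratinocyte marker score in AG (0.45 and 0.47) and less in GHA501A (0.25 and 0.18). Thbs1 and Thbs2 were weakly related, at 0.23 and 0.16 in AG and 0.14 in treated GHA501A. Cells of a set share preparation and unknown depth, and no test was made. With the number of genes detected, rho was 0.51 for Sparc, -0.35 for Thbs1 and 0.30 for Fstl1 in untreated AG, and 0.42 for Tnc and -0.25 for Fstl1 in untreated GHA501A. For every other member and set computed it was between -0.11 and 0.22, and the part of this number in the relations above was not tested.

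Outside the group, the genes with the most similar variation over cells, by mean rho over the sets in which a member was detected in at least 20% of cells, differed between members. For Fstl1 they were the secreted collagen-repeat protein Cthrc1 (0.58), the collagen crosslinking enzyme Lox (0.53) and the annexin Anxa5 (0.50), over 4 sets and 7053 genes. For Tnc they were the hemidesmosomal collagen Col17a1 (0.45), the integrin Itga6 (0.39) and the protease Prss23 (0.38). For Thbs1, over 3 sets, they were the protocadherin Fat1 (0.38), Cdc42ep3 (0.38) and Mical2 (0.34). Col1a1 was among the nearest 3 for Fn1 (0.43, beside Aebp1 at 0.43 and the myosin Myh9 at 0.42), for Thbs2 (0.31, beside Lamb1 at 0.30 and Fn1 at 0.30) and for Fbn1 (0.54, beside Col6a1 at 0.53 and Wisp2 at 0.53, over 2 sets). For Sparc they were Fstl1 (0.47), Vim (0.46) and Serpinf1 (0.44). Dcn had no partner above 0.34, the first being Cep170 followed by Xlr3b and Xlr3a (0.31 each), and Postn reached 20% of cells in no set.

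Other matrix genes and their receptors were taken from 4 lists of 57 genes, of which 38 were tested. Between the series 5 were higher in AG, 18 higher in GHA501A and 15 not called, and the median difference was -1.38 against -0.01 over all genes. Of all 12355 genes tested, 10.8% were called higher in AG and 18.2% higher in GHA501A. The counts by list below are small and are to be read beside these shares. These lists too were chosen with earlier results of these data known. Among the other matricellular genes 3 of 11 were higher in AG and 4 in GHA501A. Among microfibril and elastic fibre genes, partners of fibrillin-1, the counts were 1 and 6 of 11, and among proteoglycans, relatives of decorin, 1 and 2 of 6. Receptors for these proteins were higher in GHA501A in 6 of 10 and higher in AG in 0 of 10. With treatment 0 of the 38 were called.

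Several of these genes differed between the series by more than the members did. Osteopontin (Spp1), a phosphoprotein of bone and wounds, averaged 0.027 and 0.057 TPM in the AG sets and 1773 and 1759 TPM in GHA501A, a difference of -10.73 (SE 0.33, limma adjusted p = 0.0018). The elastic fibre protein Efemp2 (-6.57), the large proteoglycan versican (Vcan, -6.47), the CCN protein Wisp2 (-6.02) and the hyaluronan receptor Cd44 (-5.62) were next among those higher in GHA501A. Spp1 and Vcan passed the filter of more than 5 cells only through GHA501A cells. Of those higher in AG, osteomodulin (Omd), a proteoglycan of mineralised tissue, averaged 869 and 587 TPM in AG and 3.68 and 22.3 TPM in GHA501A, a difference of 6.10 (SE 0.75, limma adjusted p = 0.0063). It was followed by the CCN protein Ctgf (3.52), the Sparc relative Smoc2 (3.40), the elastic fibre protein Fbln5 (1.54) and the periostin relative Tgfbi (1.40). The calls of Smoc2, Fbln5 and Tgfbi were lost in 7, 7 and 6 of 14 alternatives, among them a pseudocount of 0.1, and those of Ctgf and Omd in 2, without untreated or treated AG. The integrin subunit Itga5, through which cells bind fibronectin, was higher in GHA501A (difference -2.63, SE 0.56, limma adjusted p = 0.0303), while its partner Itgb1 was not called (0.87, SE 0.40, limma adjusted p = 0.182). Itga5 and Itgb1 were chosen after their values were seen.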

How the data were processed

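The deposited values are TPM per gene and cell. According to the labels and methods the authors trimmed reads with Cutadapt after FastQC, aligned them to GRCm38 with TopHat, discarded multi-mapped reads, assigned the remaining reads to genes with featureCounts and derived TPM from them. Versions, annotation and strand setting are not given in the sources used here. The matrix holds 294 columns, of which 16 have no labelled sample and were set aside. The 8 cells whose name and label disagree (5 labelled treated, 3 untreated) entered alternatives only. Depth is unknown, since TPM keeps none.

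The fit took the 12355 genes that exceeded 1 TPM in more than 5 cells. Cells are not replicates, so the 4 library sets were compared as log2(mean TPM + 1) with limma 3.58.1 in R 4.3.3 (moderated test, two-sided, Benjamini-Hochberg adjustment), with treatment as covariate or the series as block. The series pair the sets by their library names. Separate cultures or animals are not given in the labels, so p-values measure the spread between these sets only. An interaction leaves no residual degree of freedom and was not tested. The fit was run on simulated data to check the code. Recovery of calls was required only for a large change and a small spread, so power in these data was not measured. Other steps were run in Python 3.11.15 with scipy 1.17.1, numpy 2.4.6, matplotlib 3.10.9 and pandas 2.3.3, with GENCODE M21 positions and RefSeq promoters. Named genes were the members, the 3 genes nearest to each by Spearman's rho, and up to 5 called genes per direction from the other lists. The members and lists were chosen with earlier results of these data known. Wilson intervals and upper limits (3 counts for a count of 0) cover counting error only. The 8 cells, the pseudocount, filters, averaging, centring, covariates, detection limits and left-out sets or cells were varied. Of these, the centring, the removal of 5 cells under 4000 genes, the removal of GHA501A cells with Krt14 and the fits without a covariate after leaving out a set were added after seeing the data.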

Additional observations from a re-analysis of the deposited data

Results flagged for a closer look

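For 3 members the treated minus untreated difference had opposite signs in the series, on the log2(mean TPM + 1) scale. How many of all genes had opposite signs was not counted, so the 3 have no share to be read against. The difference was -0.49 in AG and 0.27 in GHA501A for Fn1, -1.10 and 0.60 for Thbs1, and -0.70 and 0.34 for Dcn. AG less GHA501A, these come to -0.76 for Fn1, -1.70 for Thbs1 and -1.04 for Dcn. Each difference rests on 1 treated and 1 untreated set per series, and the difference between the series was not tested, since no residual degree of freedom is left for it. The AG value of Dcn rests on 2 detected cells, of which the higher had 41.1 TPM.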

How the results depend on the processing

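The count of genes called between the series was 3580. It was 5539 with the mean of log2(TPM + 1) over cells, and from 1023 to 2229 when a set was left out in turn without the covariate, where the series with 1 set is assumed to vary like the other. With the covariate kept, leaving out a set leaves no residual degree of freedom, so it gave values but no count. Without AG untreated the calls of Thbs1 (5.35), Postn (-3.02) and Tnc (3.46) were lost, with limma adjusted p-values of 0.0510, 0.0992 and 0.0823, and without AG treated those of Postn (-2.93) and Tnc (3.39), at 0.0962 and 0.0799. Over their alternatives the adjusted p-values ranged from 4.4e-05 to 0.0510 for Thbs1, 0.0019 to 0.0992 for Postn and 0.00022 to 0.0823 for Tnc. Of the member values between the series in the alternatives that gave a test, 6 lost the call, 3 gained it and the others kept their side of the threshold. No member changed sign between the series in any alternative run, with or without a test. Without the block or covariate the counts were 3853 between the series and 0 with treatment. With treatment the count was 0 in every alternative counted, at 393 to 626 genes with an unadjusted p under 0.05 and the block. The fits without a covariate after leaving out a set were counted for the series only and are not included here for treatment. In the counted alternatives that gave a test, 5 member differences with treatment changed sign. With the mean of log2(TPM + 1) they were Thbs1 (0.0382), Tnc (-0.0708) and Dcn (0.0423). The others were Tnc (-0.0950) without the GHA501A cells with Krt14 and Dcn (0.16) without cells under 4000 genes. None of these was called. Leaving out either AG set leaves the GHA501A difference, with no test, and its sign was the opposite for Fn1 (0.27), Thbs1 (0.60) and Dcn (0.34). The number of members restricted to a series was 1, and 0 with detection over 10 TPM or limits of 25% and 10%. The number of members lower in GHA501A cells with Krt14 than in those with Col1a1 was 7 of 9 at limits of 30, 100 and 300 TPM. The share of all genes lower in the cells with Krt14 was not counted. The cause of these changes was not tested. Unknown depth limits what a low value or a 0 can show.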

Other observations

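In the 8 AG cells whose names and labels disagree, Fstl1 and Sparc were detected in 8 of 8 cells (3.48 to 8693 TPM and 71.6 to 1983 TPM), Thbs1 in 8 (2.23 to 2051 TPM), Fn1 in 7 (0.25 to 183.1 TPM), Tnc in 6 (0 to 691 TPM), Thbs2 in 4 (0 to 24.1 TPM) and Fbn1 in 1 (6.11 TPM). Postn and Dcn were detected in 0 of the 8 cells, which allows a share of up to 37.5%.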
